A study of Saccharomyces cerevisiae with 16 samples.

Results

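Ribosome biogenesis factors are the proteins that process ribosomal RNA and assemble the 2 ribosomal subunits without being part of the finished ribosome. A list of 56 such yeast genes was followed here, out of 5656 genes that had a probe set assigned to 1 gene. For each gene the probe set with the highest mean signal was used, and all 56 passed the filter on dim genes that left 5410 genes for testing. Cells of the laboratory strain CEN.PK 113-7D of Saccharomyces cerevisiae were grown aerobically in chemostats in which glucose limited growth (dilution rate 0.05 per hour, pH 5, 30 °C, a feed of 27.1 g/l glucose with 1.42 g/l ethanol). An injection within a second then brought the residual glucose to roughly 1 g/l, or 5.56 mM. Affymetrix arrays measured total RNA of the steady state on 3 arrays, of 30 s and 60 s after the pulse on 2 each, of 120 s on 3, of 210 s on 1, of 300 s on 3 and of 330 s on 2. Every group shared the strain, the medium and the limitation, and the steady-state arrays served as the untreated reference. Per the labels, each replicated time came from at least 2 independent cultures and 210 s from a single one.

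Ribosome assembly in yeast begins in the nucleolus, where RNA polymerase I makes a long precursor that is modified, cleaved and folded while proteins join it. Small nucleolar RNAs with their proteins guide base modification, RNA helicases remodel the precursor, and separate sets of factors build the 40S and the 60S subunit before export to the cytoplasm. In yeast these genes are known as a large set whose transcripts respond together to nutrients and stress, and the question posed by the sampling is when, within minutes of a glucose pulse, their transcript levels move.

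Signals below are intensities scaled so that each array has a trimmed mean of 150, with a floor of 12, and no member was at the floor on any array (0 of 56). A gene was called when its p, adjusted over all 5410 genes by Benjamini and Hochberg's method, was under 0.05 in limma, a linear model that shares information on spread across genes. Changes are log2 differences of group means with their standard error (SE). Signals are compared only between arrays for the same gene. The values are averages over whole cultures and relative to all other transcripts, so a change in some of the cells, a smaller change in all of them and a change in RNA per cell cannot be told apart.

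Between 2 arrays of one time the median gene differed by 0.157 to 0.279 on the log2 scale, and the trimmed means of the arrays as deposited spanned 82.8 to 325.9. The experiment files put the arrays on 6 days. Both 330 s arrays were alone on theirs, so that day and time cannot be told apart for them by a fixed day term, while the other replicated times were spread over 2 or 3 days. The experiment file of 300 s replicate 1 goes against its label: it describes a wild-type, glucose-limited sample with benzoic acid and names no pulse. Its title was kept as the group, and the main counts that rest on it are given with and without it. On this array PDR12, which encodes the pump for weak organic acids such as benzoate and was chosen after the file had been read, had a signal of 632.4, against 791.4 and 795.7 on the other 300 s arrays and 578.6 to 685.5 at steady state. The experiment files of both 330 s arrays also differ from their labels: they describe a sample by its hours of fermentation and give no pulse time. Their titles were kept as the group as well. As a check of the strain, all 6 markers of the a mating type examined were above the floor on all 16 arrays. The alpha pheromone gene MF(ALPHA)2 was at the floor on 14 of them, whereas STE3, SAG1 and MF(ALPHA)1 were above it on all. The summed signal of the a markers was 4681 to 6700 at steady state and 4546 to 7373 at 300 s, and that of the 4 alpha markers 368.3 to 384.9 and 438.1 to 506.6. The alpha markers did not move together at 300 s. MF(ALPHA)1 was called as risen (log2 0.81, limma adjusted p = 0.00315) and SAG1 as fallen (log2 -0.57, limma adjusted p = 0.0196). STE3 was not called (log2 0.04).

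No ribosome biogenesis gene was found to change within 120 s of the pulse, and most were higher by 300 s. The median over the 56 genes, relative to each gene's steady-state mean, was 0.11 and -0.07 log2 units on the 30 s arrays, 0.04 and -0.06 at 60 s, and 0.05, 0.05 and -0.06 at 120 s. The single 210 s array gave 0.04. At 300 s the values were 0.58, 0.90 and 0.71, and at 330 s 1.06 and 0.98, so that every array of the last 2 times lay above every earlier one. Over the same arrays the median of all tested genes lay between -0.18 and 0.04. By limma's moderated F test over the 5 replicated times after the pulse, 50 of the 56 genes changed (89.3%), where 35.5% of all genes did. The 6 that did not pass were DBP6, SPB4, UTP10, UTP20, UTP22 and MPP10.

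**Figure D1:**
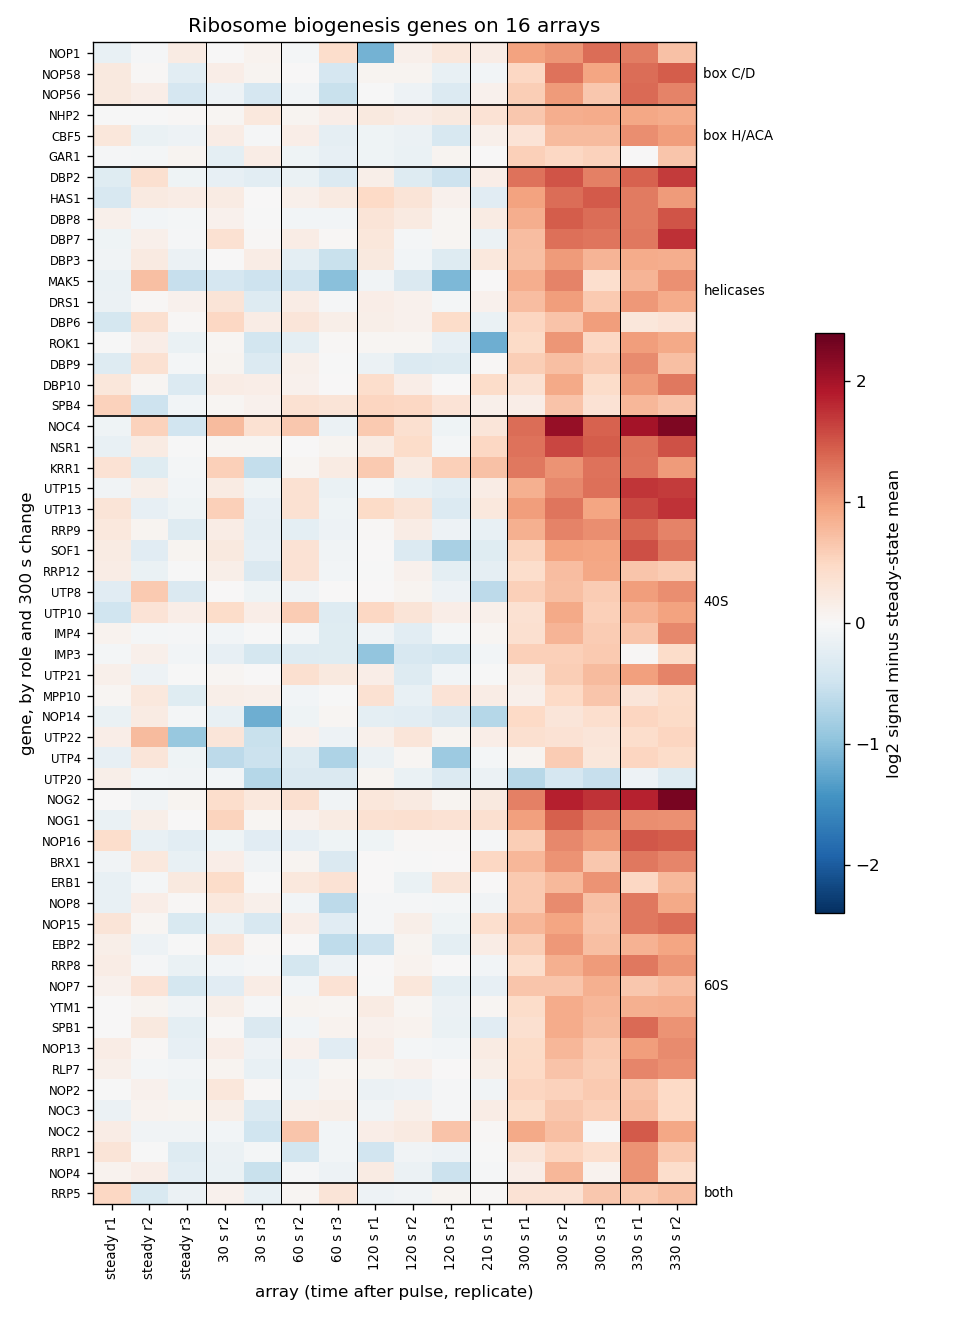
Heat map of the 56 ribosome biogenesis genes (rows, grouped by role and ordered by their 300 s change) on the 16 arrays (columns, by time after the pulse and replicate). Colour gives the log2 signal minus the gene's mean over the 3 steady-state arrays, red for higher and blue for lower; red fills most rows in the 300 s and 330 s columns.

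**Figure D2:**
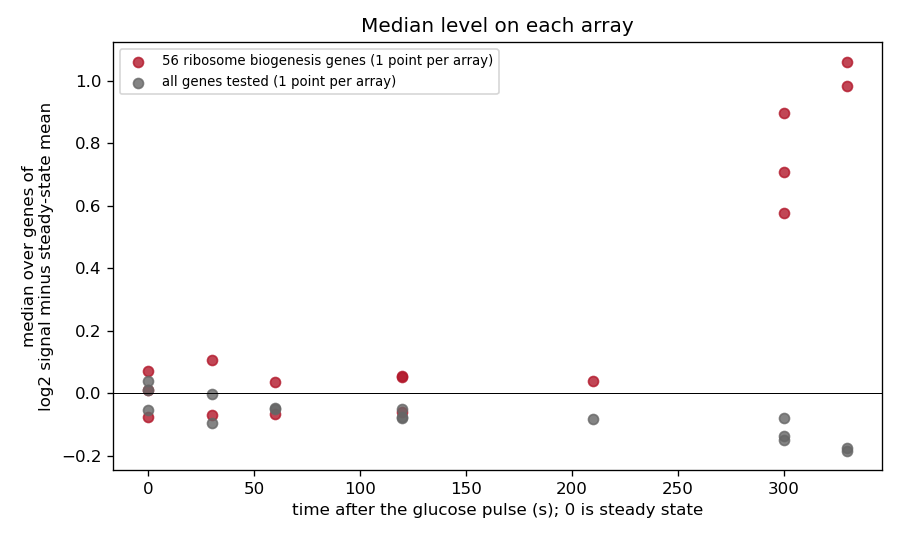
Median over genes of the log2 signal minus the steady-state mean (vertical axis), 1 point per array, against time after the pulse in seconds (0 is the steady state). Red points are the 56 ribosome biogenesis genes and grey points all 5410 tested genes; the red points lie at 0.58 to 0.90 at 300 s and at 0.98 and 1.06 at 330 s, while the grey points stay between -0.18 and 0.04.

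The early times gave no call. At 30 s, 0 of 56 passed in limma, where 0% of all genes did, and 2 had an unadjusted p under 0.05 (336 of all genes). With only 30 s replicate 3 left at that time, taken to vary like the other groups, NOP14 was called as fallen and 0.314% of all genes were called. At 60 s the counts were 0 called, against 0% of all genes, and 1 at an unadjusted p under 0.05 (343 of all). At 120 s, 0 were called against 0.0739% of all genes, and 4 had an unadjusted p under 0.05 (586 of all). The medians were 0.01, -0.01 and 0.00, beside -0.05, -0.05 and -0.07 for all genes, and single values at 120 s ran from -0.59 to 0.47. Between 120 s and 60 s 0 of 56 passed (0.0555% of all genes) and 0 had an unadjusted p under 0.05 (232 of all). In simulated data the test found 17% of 1.5-fold changes at 30 s and 27.5% at 120 s, and 79.5% and 86.5% of 2-fold changes, so most changes of 1.5-fold were not detectable with these arrays.

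Single genes in that interval are given as values. At 120 s all arrays of 3 genes lay above all steady-state arrays, which held for 4.16% of all genes, and all arrays of 2 lay below (10.4% of all). The 3 were NHP2, NOG1 and NOG2. NOG1, a GTPase of the maturing 60S particle, had signals of 244, 302 and 275 at steady state, 393 and 281 at 30 s, 295 and 311 at 60 s and 349, 357 and 347 at 120 s. Its 120 s arrays were all above the steady-state range, and its log2 change of 0.36 ± 0.14 (SE, n = 3 each) was not called (limma adjusted p = 0.401). Both genes that lay below, NOP14 and IMP3, belong to the 40S pathway. IMP3, which helps the U3 RNA pair with the precursor, had 62.5, 70.7 and 61.9 at steady state and 33.6, 49.5 and 48.0 at 120 s, a log2 difference of -0.59 ± 0.18 that did not pass either (limma adjusted p = 0.276).

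On the 210 s array, a single culture with no replicate, 16 of 56 genes (28.6%) lay above all 3 steady-state arrays, where 19.2% of all genes did. The 16 were NHP2, DBP3, DBP8, DBP10, DRS1, UTP15, KRR1, NSR1, NOC3, NOG1, NOG2, NOP13, NOP15, EBP2, BRX1 and RLP7. The same count on the 3 arrays of 120 s was 17, 9 and 9 (30.4%, 16.1% and 16.1%). Of all genes 16.7%, 14.1% and 16% lay above. At 300 s the count was 47, 53 and 48 (83.9%, 94.6% and 85.7%), where 24.3%, 25.2% and 25.6% of all genes did. Below all 3 steady-state arrays lay 9 of the 56 genes at 210 s and 8, 11 and 16 at 120 s. The matching shares of all genes were not computed. Among the 45 genes called at 300 s, the 210 s value stood at a median of 12% of the 300 s change, with a range of -174 to 77.2%. Within pulse 1, on arrays of the same day, 29 of 56 genes were higher at 210 s than at 120 s, where 42.5% of all genes were. The median difference was 0.01, and -0.03 for all genes. From 210 s to 300 s, 53 of 56 were higher (median difference 0.59, all genes 0), where 48.7% of all genes were. But these arrays are from different days, and the later one is the array whose file goes against its label.

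At 300 s, 44 of the 56 ribosome biogenesis genes had risen (78.6%), 1 had fallen and 11 did not pass. Among all genes 30.5% were called, 12.1% as risen and 18.3% as fallen. The median change was 0.73, against -0.12 for all genes, and 55 of the 56 values were above 0. In 45 genes all 3 arrays at 300 s lay above all 3 at steady state, which held for 14.1% of all genes, and in 1 they lay below (23.6% of all). At least 2-fold increases were called in 13 genes, where 3.86% of all genes rose that far: NOP1, DBP2, DBP7, DBP8, HAS1, NOC4, RRP9, UTP13, UTP15, KRR1, NSR1, NOG1 and NOG2. Without 300 s replicate 1 the counts were 46 risen, where 12.9% of all genes rose, and 0 fallen with a median of 0.82, and 44 of the 45 calls were kept. That array gave the lowest of the 3 values for 42 of the 56 genes.

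Most of these genes were also higher at 300 s on arrays of the same day. Replicate 3 has steady-state and 300 s arrays of the same day, and there 55 of 56 genes were higher at 300 s (median 0.88, with -0.09 for all genes, of which 41.6% were higher). The 300 s replicate 1 and steady-state replicate 2 arrays also share a day, and 50 of 56 were higher (median 0.50, with -0.12 for all genes and 39.1% higher). That pair joins different pulse numbers, and its 300 s array is the one whose file goes against its label. How arrays were scaled moved the balance over all genes. Of all calls at 300 s 39.8% were increases in the fit as given, 62% with arrays set to equal medians and 50.5% after quantile normalization, and the median of all genes was -0.12, 0.04 and -0.03. The number of the 56 genes called was 45, 51 and 49 in the same order, and 30.5%, 25.9% and 28.7% of all genes were called.

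**Figure D3:**
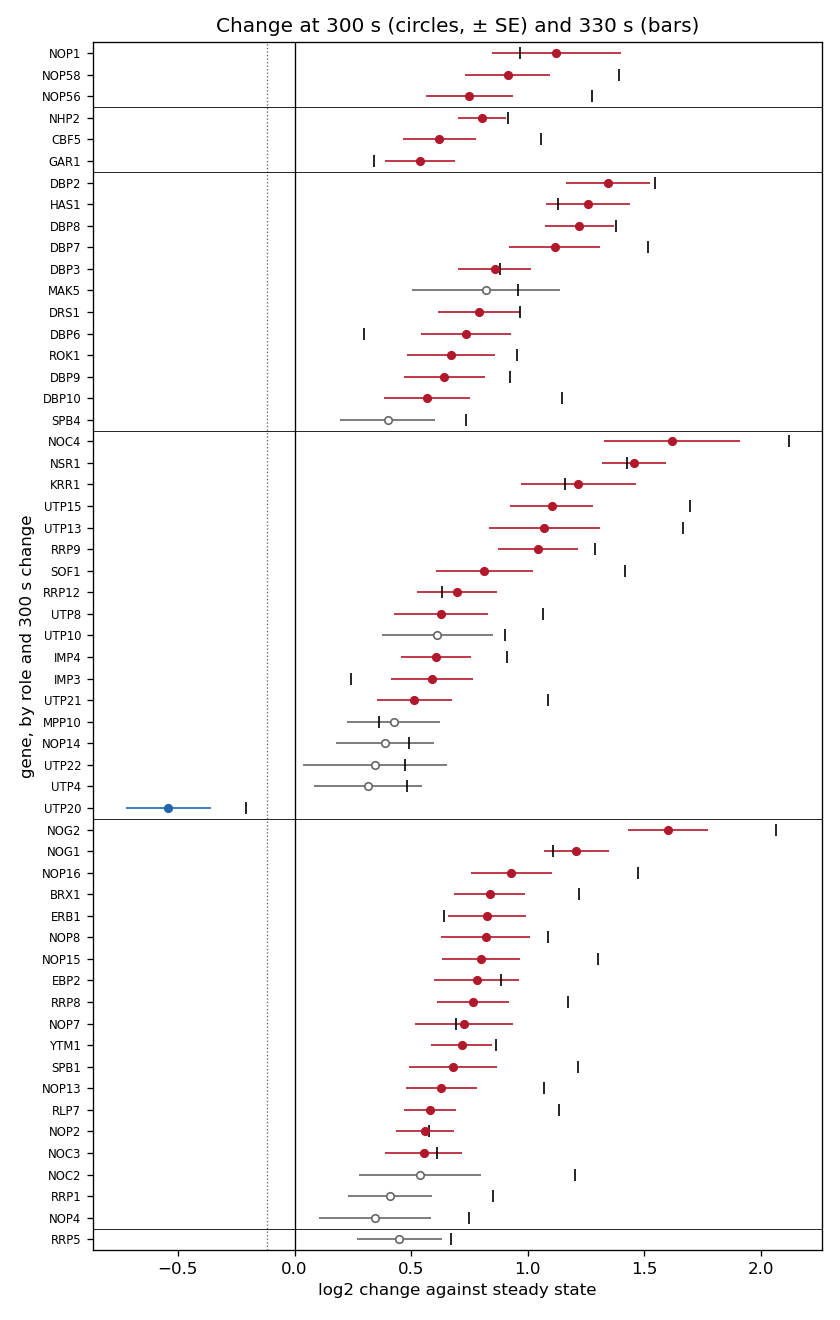
Log2 change against steady state (horizontal axis) for each of the 56 genes, grouped by role and ordered by the 300 s change. Circles with SE bars are 300 s (filled red, called as risen; filled blue, called as fallen; open grey, not called), black ticks are 330 s, and the dotted line is the median of all genes at 300 s (-0.12); all circles except that of UTP20 lie to the right of 0.

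Among the 56 genes, 6 were listed as core proteins of box C/D or box H/ACA small nucleolar RNPs, and all 6 rose at 300 s. The U3 particle protein RRP9 and the trio of IMP3, IMP4 and MPP10, which binds the U3 RNA, are counted in another class below. Of these, MPP10 did not pass. The 3 of box C/D particles, which guide 2'-O-methylation of ribosomal RNA, had a median change of 0.91. NOP1, the fibrillarin methyltransferase itself, had signals of 252, 283 and 330.2 at steady state and 558, 598 and 730.5 at 300 s. The groups did not overlap, and the change was 1.12 ± 0.28 (SE, n = 3 each, limma adjusted p = 0.00681). For NOP58, a scaffold of the same particle, the values were 1175, 1020 and 845 and 1413, 2480 and 1936, with replicate 1 the lowest at 300 s but still above all of steady state (log2 0.91 ± 0.18, limma adjusted p = 0.0015). NOP56, its partner, went from 157, 149 and 101 to 200.2, 270 and 208 without overlap, a change of 0.75 ± 0.19 (limma adjusted p = 0.00725). NOP58 had 4 probe sets on the array, and all of them were higher at 300 s, by 0.25 to 0.97. SNU13, another core protein of these particles, is not among the 56 and is counted below with the other 60S factors; it had 262, 404 and 295 at steady state and 689.8, 764 and 729 at 300 s, without overlap (log2 1.21 ± 0.14, limma adjusted p = 1.71e-05).

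Box H/ACA particles guide the conversion of uridine to pseudouridine, and the 3 of their proteins among the 56 had a median change of 0.62. NHP2, a core RNA-binding protein, gave 968, 962 and 995 at steady state and 1533, 1790 and 1799 at 300 s. Its steady-state arrays lay close together, and the change was 0.80 ± 0.10 (limma adjusted p = 3.84e-05). CBF5, the pseudouridine synthase, had 778, 576 and 594 and then 809, 1094 and 1094, with no overlap (log2 0.62 ± 0.16, limma adjusted p = 0.00753). GAR1, another core protein, had 847, 838 and 904 and then 1286, 1215 and 1260, again with no overlap (log2 0.54 ± 0.15, limma adjusted p = 0.0133).

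Of 12 RNA helicases, enzymes that use ATP to rearrange RNA and release snoRNAs or proteins from the precursor, 10 rose and 2 did not pass, with a median change of 0.81 and a range of 0.40 to 1.34. DBP2 had signals of 289.7, 466 and 332 at steady state and 878, 1014 and 823 at 300 s. Every 300 s array exceeded every steady-state array, by a change of 1.34 ± 0.18 (limma adjusted p = 5.2e-05), and its second probe set gave 1.52. HAS1, which works on both subunits, had 79.01, 119.8 and 116.9 and then 202, 261 and 288, a change of 1.26 ± 0.18 (limma adjusted p = 9.8e-05).

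DBP8, a helicase of the 40S pathway, went from 161, 140.2 and 142 to 270.4, 402 and 376, with replicate 1 the lowest of the 300 s arrays and no overlap (log2 1.22 ± 0.15, limma adjusted p = 2.39e-05). DBP7, of the 60S pathway, went from 41.6, 48.7 and 43.9 to 75.0, 111 and 108 in the same order (log2 1.11 ± 0.19, limma adjusted p = 0.000516). The other risers were DBP3, DBP6, DBP9, DBP10, DRS1 and ROK1, by 0.57 to 0.86. Both helicases that did not pass act in the 60S pathway. SPB4 had 246, 119 and 159.6 at steady state and 188, 271 and 212 at 300 s, groups that overlapped because steady-state replicate 1 was higher than 2 of the 3 later arrays (log2 0.40 ± 0.20, limma adjusted p = 0.149). Without that array SPB4 was called, with 0.68, and with the day of the arrays as a fixed block it was called with 0.58. In total it was called in only 3 of 20 alternatives. Without 300 s replicate 1 it was not called (limma adjusted p = 0.0916). MAK5 had 38.1, 70.4 and 29.0 and 77.7, 97.5 and 56.5, with steady-state replicate 2 above 300 s replicate 3 (log2 0.82 ± 0.32, limma adjusted p = 0.0619). It was called without the first of these, with 1.18, and without the second, with 1.03. Over all 20 alternatives MAK5 was called in 7, and without 300 s replicate 1 it was not (limma adjusted p = 0.108).

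Another 18 genes encode factors of the small subunit processome and of later 40S assembly. The processome is a large particle that forms on the growing precursor around the U3 RNA and prepares the first cleavages. In this class 12 rose, 1 fell and 5 did not pass, with a median of 0.62 and values from -0.54 to 1.62. NOC4, which acts with NOP14 in 40S assembly and export, had signals of 35.0, 55.2 and 27.1 at steady state and 94.8, 160.1 and 99.9 at 300 s. The steady-state arrays spread widely, yet the groups did not overlap, and its change of 1.62 ± 0.29 was the largest of the 56 (limma adjusted p = 0.000734). Its partner NOP14 had 29.4, 37.6 and 31.6 and 45.3, 39.9 and 43.3, no overlap, and a log2 difference of 0.39 ± 0.21 that did not pass (limma adjusted p = 0.175).

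NSR1, the yeast nucleolin, had 429, 559 and 485 at steady state, 685 at 210 s and 1209, 1482 and 1336 at 300 s. All 300 s arrays were above all of these, with a change of 1.46 ± 0.14 and the lowest limma adjusted p of the 56 genes, 1.88e-06. KRR1, an RNA-binding protein of the processome, went from 78.3, 50.2 and 59.7 to 149, 129.8 and 152 (log2 1.22 ± 0.25, limma adjusted p = 0.0017). UTP15, of the UTP-A complex that binds the precursor first, went from 44.1, 51.8 and 44.7 to 84.1, 104 and 116, with the 300 s arrays all higher (log2 1.10 ± 0.18, limma adjusted p = 0.00029).

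Among the genes of this class, the subunits of UTP-A and of the trio that binds the U3 RNA did not all pass together. Those of UTP-B did. Subunits counted in other lists are not included here. In UTP-A, UTP15 and UTP8 rose, by 1.10 and 0.63, while UTP10 (0.61, limma adjusted p = 0.0616) and UTP4 did not pass. UTP4 had 23.6, 33.1 and 25.3 at steady state and 28.2, 41.2 and 32.8 at 300 s, overlapping ranges with a log2 difference of 0.31 ± 0.23 (limma adjusted p = 0.327). In UTP-B, UTP13 and UTP21 rose by 1.07 and 0.51. Of the trio that binds the U3 RNA, IMP3 and IMP4 rose by 0.59 and 0.61, and MPP10 had 0.42 and did not pass (limma adjusted p = 0.118). These splits depend in part on 300 s replicate 1, whose file goes against its label. Without it UTP10 and MPP10 were called, with 0.74 and 0.57 (limma adjusted p = 0.0447 and 0.0483), and UTP4 was not. Over the 20 alternatives UTP10 was called in 5, MPP10 in 3 and UTP4 in 0. Whether members of a complex differed from each other was not tested. The U3 particle protein RRP9 rose by 1.04, SOF1 by 0.81 and RRP12, an export factor, by 0.70.

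UTP22, of the UTP-C complex, had 78.5, 119.6 and 37.5 at steady state and 92.7, 89.9 and 86.5 at 300 s. Its 300 s arrays lay within the steady-state range (log2 0.34 ± 0.31, limma adjusted p = 0.429), and without steady-state replicate 3 the value was -0.11. UTP20, a very large scaffold protein of the processome, was the one gene called as fallen. It had 53.3, 46.3 and 45.9 at steady state, 30.6, 36.6 and 32.8 at 300 s and 44.6 and 39.3 at 330 s. The 300 s arrays were all below steady state, and UTP20 fell by 0.54 on the log2 scale (SE 0.18, limma adjusted p = 0.0346). The call held in 10 of 20 alternatives. It was lost with median scaling (-0.37), quantile normalization (-0.37) and the array series as a block (-0.49), and without steady-state replicate 1 (-0.47), steady-state replicate 2 (-0.57), 300 s replicate 1 (-0.48, limma adjusted p = 0.0858) or 300 s replicate 3 (-0.53). UTP20 also has 10 probe sets, of which the other 9 had lower mean signals, most of them at or near the floor. The brightest of these, with a mean log2 signal of 4.72, changed by 0.001, and the next, with 4.22, by -0.45. Averaged over all 10 the change was -0.05.

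**Figure D4:**
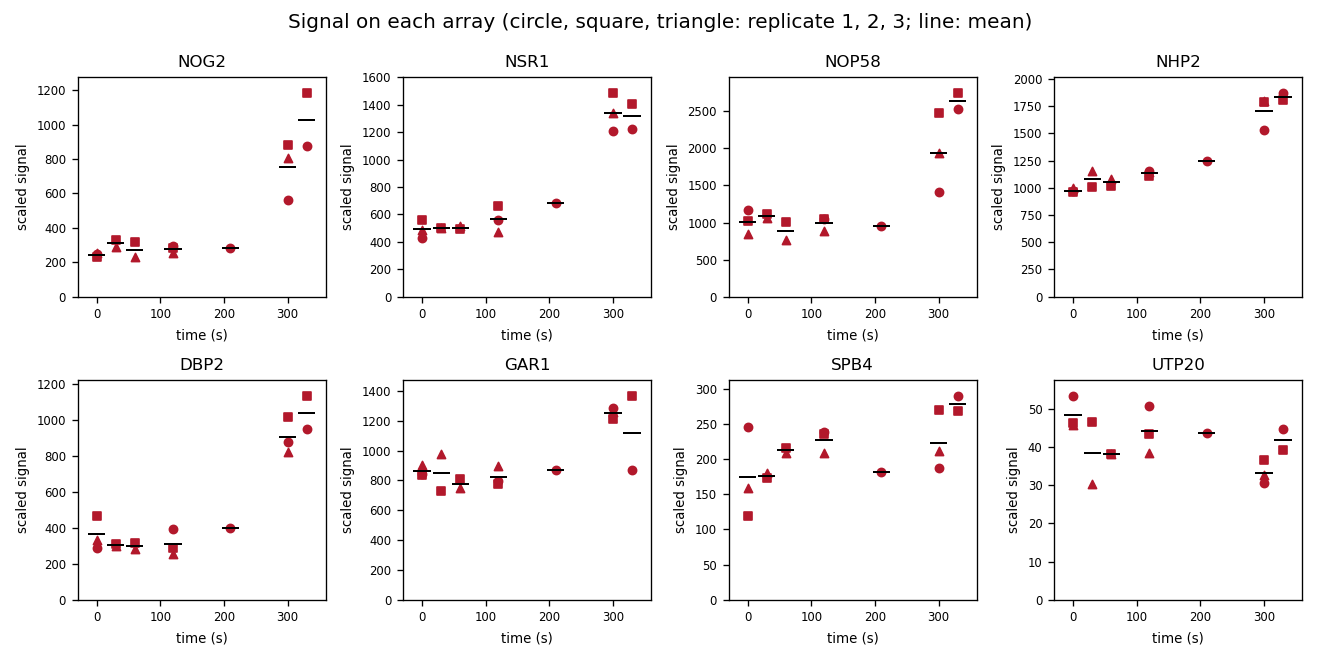
Scaled signal (vertical axis, from 0) on each of the 16 arrays against time after the pulse in seconds for 8 genes: NOG2, NSR1, NOP58, NHP2, DBP2, GAR1, SPB4 and UTP20. Circles, squares and triangles are replicates 1, 2 and 3 and short lines are means; NOG2, NSR1 and DBP2 are higher on every 300 s and 330 s array than on any earlier one, SPB4 overlaps between steady state and 300 s, and UTP20 is lower at 300 s.

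Among 19 factors of the 60S subunit, 16 rose at 300 s and 3 did not pass, with a median of 0.73 and all 19 values above 0. NOG2, a GTPase that checks the maturing 60S particle, had signals of 246, 231 and 254 at steady state and 563, 883 and 808 at 300 s. Replicate 1 was the lowest at 300 s and still exceeded every steady-state array, and the change was 1.60 ± 0.17 (limma adjusted p = 5.73e-06), with 1.49 on its second probe set. NOG1, the related GTPase, had 540.3, 734 and 633 at 300 s, all above its steady-state and 120 s values given earlier (log2 1.21 ± 0.14, limma adjusted p = 1.45e-05).

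NOP16, a constituent of early 60S particles, went from 274, 180.4 and 171 to 308, 456 and 416, with the highest steady-state array below the lowest 300 s array (log2 0.93 ± 0.17, limma adjusted p = 0.000904). BRX1, also of early 60S particles, went from 149, 188 and 139 to 274, 330 and 244 without overlap (log2 0.84 ± 0.15, limma adjusted p = 0.000822). The 3 members of the complex of NOP7, ERB1 and YTM1, needed to process the 27S precursor, rose by 0.73, 0.83 and 0.72. Ribosomal RNA methyltransferases of the large subunit rose as well, NOP2 by 0.56, RRP8 by 0.77 and SPB1 by 0.68.

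The other 60S risers, NOC3, NOP8, NOP13, NOP15, EBP2 and RLP7, rose by 0.55 to 0.82. NOC2 (0.54, limma adjusted p = 0.133), NOP4 and RRP1 did not pass at 300 s. NOP4, an RNA-binding protein of early 60S assembly, had 67.2, 71.4 and 53.7 at steady state and 70.9, 109.9 and 67.8 at 300 s, and only replicate 2 stood above the steady-state range (log2 0.34 ± 0.24, limma adjusted p = 0.294). RRP1 had 151, 120.1 and 98.5 and 149, 175 and 162, with steady-state replicate 1 just above 300 s replicate 1 (log2 0.41 ± 0.18, limma adjusted p = 0.0982). RRP5, which is required for both subunits, had 311, 170.3 and 199.5 and 278, 279.9 and 346, groups that overlapped through steady-state replicate 1 (log2 0.45 ± 0.18, limma adjusted p = 0.0754). Without steady-state replicate 1 both RRP1 and RRP5 were called, with 0.57 and 0.70, as they were with day as a fixed block, with 0.59 and 0.70. In total RRP1 was called in only 4 and RRP5 in only 5 of 20 alternatives. Neither was called without 300 s replicate 1 (limma adjusted p = 0.095 and 0.0794).

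The direct comparison of 300 s with 120 s takes no group mean from the steady-state arrays, though it shares the 300 s arrays with the comparison above. Its SE and p-values rest on a spread estimated over all replicated times, steady state included. In it 45 of the 56 genes rose (80.4%) and 0 fell, where 22.1% of all genes were called and 11.3% rose. The median was 0.74, against -0.04 for all genes, and 48 genes had all 300 s arrays above all 120 s arrays (17.9% of all genes). NOP14, MAK5 and RRP1 passed here and not against steady state, with changes of 0.66 ± 0.21, 1.33 ± 0.32 and 0.64 ± 0.18 (limma adjusted p = 0.0325, 0.0066 and 0.0192). DBP6, DBP10 and UTP20 passed against steady state and not here. On arrays of one day, 55 of 56 genes were higher at 300 s than at 120 s in replicate 2 (median 0.90) and 54 in replicate 3 (median 0.84). Of all genes, 44.4% and 42.5% were higher in these pairs (medians -0.03 and -0.06). Without 300 s replicate 1, 43 of the 56 genes were called as risen, where 11.3% of all genes rose.

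At 330 s, 48 of the 56 genes had risen (85.7%) and 0 had fallen, where 37.6% of all genes were called, 13.3% as risen and 24.3% as fallen. These counts rest on the titles of the 330 s arrays, whose files give no pulse time. The 330 s and 300 s comparisons share the steady-state arrays, so their values stand side by side and do not support each other. The median at 330 s was 1.01, against -0.19 for all genes, and 51 genes had both arrays above all of steady state (19% of all genes) and 1, UTP20, had both below (36.1% of all). Increases of at least 2-fold numbered 28, where 5.43% of all genes rose that far. NOC4 rose 4.35-fold, to 149 and 178, a change of 2.12 ± 0.33 (SE, 3 against 2 arrays, limma adjusted p = 0.000147). NOG2, at 876 and 1181, rose 4.18-fold (log2 2.06 ± 0.19, limma adjusted p = 1.17e-06). UTP15, at 154 and 149, rose 3.24-fold (limma adjusted p = 1.25e-05).

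All 19 of the 60S factors were called at 330 s, 12 of the 18 of the 40S class and 11 of 12 helicases. So were all 3 core box C/D proteins, 2 of 3 core box H/ACA proteins and RRP5. In total 41 genes were called at both times. Called at 330 s alone were MAK5, SPB4, UTP10, NOC2, NOP4, RRP1 and RRP5, and at 300 s alone GAR1, DBP6, UTP20 and IMP3. The 330 s signals of GAR1 were 873 and 1364, of which the first lay within the steady-state range (log2 0.34 ± 0.17, limma adjusted p = 0.122). NOP14, UTP4, UTP22 and MPP10 were called at neither time.

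Between 300 s and 330 s few genes passed the test. In that contrast 1 of the 56 rose and 0 fell, where 2.18% of all genes were called and 0.647% rose, and 18 had an unadjusted p under 0.05 (1064 of all genes). The riser was RLP7, a relative of ribosomal protein L7 that binds the 27S precursor, with 302, 350 and 329 at 300 s and 492 and 466 at 330 s, a change of 0.55 ± 0.13 (limma adjusted p = 0.0384). It did not pass under 6 of the alternatives or when any 1 of 4 arrays was left out, 300 s replicate 1 among them. The median over the 56 was 0.28, against -0.05 for all genes, and 0.17 without 300 s replicate 1. In 22 genes both 330 s arrays lay above all 300 s arrays (13.8% of all genes), among them NOP56, NOP58, CBF5, NOP16 and BRX1, and in 2 they lay below (21.1% of all). Mean log2 signals were lower at 330 s in 12 genes, including NOP1, HAS1, KRR1, NSR1 and NOG1.

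Other genes of ribosome assembly were taken from a list of 124, of which 122 were tested. At 300 s, 72 rose (59%) and 3 fell, and at 330 s, 88 rose (72.1%) and 0 fell. Among 51 other 40S factors 36 rose at 300 s, with a median of 0.61, led by LCP5 (log2 1.59 ± 0.19), UTP5 (1.45 ± 0.19) and UTP9 (1.30 ± 0.20), with limma adjusted p-values of 2.31e-05, 4.4e-05 and 0.000175. Of 47 other 60S factors, SNU13 included, 29 rose and 2 fell, with a median of 0.65. BUD20, a shuttling factor that leaves the nucleus with the 60S particle, had 124, 120 and 129.5 at steady state and 345, 503 and 609.6 at 300 s, no overlap, and the largest change of this list at 1.93 ± 0.19 (limma adjusted p = 2.05e-06). RSA4 and SSF1 rose by 1.44 ± 0.24 and 1.36 ± 0.22. The 2 that fell were RSA1 (log2 -0.76 ± 0.16, limma adjusted p = 0.00237) and REH1 (log2 -0.48 ± 0.16, limma adjusted p = 0.0299).

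Enzymes of the pathway that trim or cut RNA were listed separately. Of 13 genes of the exosome, which trims precursor ends, and its cofactors, 5 rose at 300 s, with a median of 0.41, and 7 at 330 s. RRP46, RRP42 and RRP4 rose by 1.00 ± 0.16, 0.99 ± 0.15 and 0.98 ± 0.18 (limma adjusted p = 0.000298, 0.000151 and 0.000973). Of 11 genes of RNase P, which matures transfer RNA, and RNase MRP, which cuts the ribosomal precursor, 2 rose, 1 fell and 8 did not pass, with a median of 0.12. POP3 rose by 0.82 ± 0.22 and POP1 by 0.50 ± 0.16 (limma adjusted p = 0.00996 and 0.0262). POP6 had 66.7, 68.7 and 45.2 at steady state and 27.1, 33.5 and 28.5 at 300 s, below on every array, a change of -1.001 ± 0.20 (limma adjusted p = 0.00137). Whether these lists differed from the 56 genes was not tested, and their counts read against the 12.1% of all genes that rose.

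**Figure D5:**
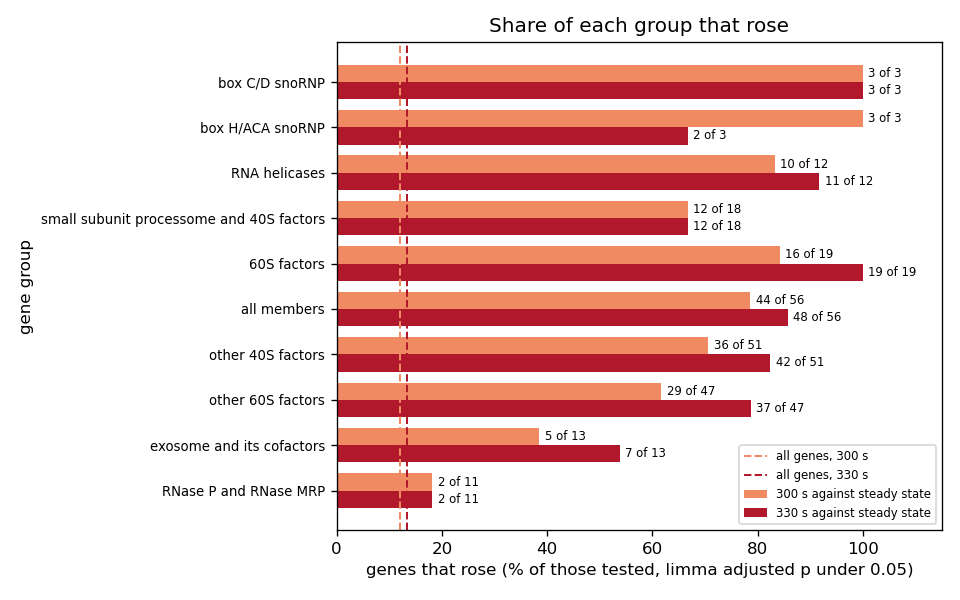
Genes that rose, as a percentage of those tested (horizontal axis, from 0), for 5 role classes of the 56 ribosome biogenesis genes (RRP5, alone in its class, is not drawn), for all 56, and for 4 lists of other ribosome assembly genes; light bars are 300 s, dark bars 330 s, with the counts printed beside them. Dashed lines give the share of all tested genes that rose (12.1% at 300 s and 13.3% at 330 s). The shares drawn run from 18.2% for RNase P and MRP to 100% for the core box C/D proteins.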

How the data were processed

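The authors deposited 1 intensity per probe set and array on a linear scale. Per the submitters' processing notes they used Affymetrix GCOS, with no version or settings given in the sources used here. These intensities were not on a common scale, so each of the 16 arrays was scaled to a mean of 150 after trimming 2% at each end, floored at 12 (8% of that mean) and log2-transformed. Of 9335 probe sets, 60 were controls, 6504 carried 1 gene, 328 several and 2443 none in the annotation used. All 6504 matched the RefSeq table of the R64 assembly, used for names and neighbours only. The probe set with the highest mean was kept per gene, and 246 of 5656 genes were dropped for lying above the floor on under 2 arrays. The other pathway genes MDN1 and NOP10 were not analysed here.

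One linear model covered the 15 arrays of the replicated times in limma 3.58.1 under R 4.3.3 (with a variance trend in eBayes, 9 residual and 6.31 prior degrees of freedom), with Benjamini-Hochberg adjustment over 5410 genes for each of 8 comparisons. The 210 s array entered no test. Precision is limited by how few arrays each time has. Named with values on each array were up to 4 called members per role with the largest 300 s change, up to 2 not called with the smallest, and any that fell; other pathway genes were named by the 3 largest called changes per list. NOP14, IMP3, RLP7, SNU13 and the complexes described were named after their values were seen. The members and lists were chosen with earlier results of these data known.

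The procedure was tested on simulated data over 5410 genes, of which 200 were changed. At 300 s, 19% of 1.5-fold and 87% of 2-fold changes were recovered, and with no change 0 to 1 genes were called per comparison. In the data 30.5% of all genes were called at 300 s, so the adjustment was less strict there than in the simulation. The simulated shares therefore do not give the recovery at 300 s in the data. Alternatives covered scaling, floor, filter, probe sets, variance model, fitted arrays, blocks, threshold and each array left out.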

Additional observations from a re-analysis of the deposited data

How the results depend on the processing

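The count of members called at 300 s was 34 to 51 over all alternatives, that at 330 s 36 to 50, and that between 300 s and 120 s 35 to 48; leaving out 1 array gave 39 to 46, 36 to 46 and 37 to 43. Of the 45 called at 300 s, 33 were called in each of the 20 alternatives, and the 12 lost in at least 1 were GAR1, DBP6, DBP9, DBP10, ROK1, UTP8, UTP20, UTP21, IMP3, NOC3, NOP7 and SPB1. Over the 26 members named by rule, 490 values kept their side of the threshold, 19 gained a call, 11 lost it (GAR1 at adjusted p under 0.01, the rest UTP20) and 0 called values changed sign. At 60 s, 120 s and between them the limma count was 0 in every alternative, and at 30 s it was 0 to 1 with 1 array left out (NOP14, called as fallen without 30 s replicate 2, from the 1 array left, which is taken to vary like the other groups; 0.314% of all genes were called). The single call between 330 s and 300 s became 0 with median scaling, no variance trend, the array series as a block, day as a random block, only the compared arrays or adjusted p under 0.01, and was 0 to 1 with 1 array left out (0 without 300 s replicate 1, 300 s replicate 3, 330 s replicate 1 or 330 s replicate 2, the last pair again leaving 1 array). Other pathway genes called at 300 s numbered 75, 48 at adjusted p under 0.01 and 52 to 81 with 1 array left out. The cause of these differences was not tested, except that a stricter threshold calls fewer genes by construction.

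Increases made up 39.8% of all calls at 300 s, 62% with median scaling and 50.5% after quantile normalization; at 330 s these were 35.4%, 52.2% and 43.1%. The replicate block used the pulse number, which the main fit left out. Deviations were correlated above 0.1 in 20 of 31 same-numbered pairs of arrays, against 8 of 62 pairs with different numbers. Among pairs of the same day this held for 14 of 17. Whether arrays of one pulse number belong together was not tested. With the replicate block the counts were 47 at 300 s, 48 at 330 s, 47 between 300 s and 120 s, 1 between 330 s and 300 s, 0 at 30 s, 60 s, 120 s and between 120 s and 60 s, and 82 for the other pathway genes. Day as a fixed block gave 43 at 300 s and could not be fitted for 330 s; as a random block day gave 47 and 45. The planned descriptions of promoter and protein motifs were not run.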

Other observations

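Gene neighbourhood, taken from the order of genes in the RefSeq table, adds a description of the same values. Of the 56 ribosome biogenesis genes, 6 lie next to another listed ribosome assembly gene, and 0 share a divergent pair with one. DBP8 and its tandem neighbour NMD3, the 60S export adaptor, had changes of 1.22 and 1.12 at 300 s (limma adjusted p = 2.39e-05 and 0.00169). GAR1 and the convergent RPF1 had 0.54 and 1.02, and UTP13 and RSA3 1.07 and 0.55, and both genes of each pair were called. In the other 3 pairs the neighbour did not pass: NSR1 had 1.46 and the exosome gene MTR3 0.01, NOC4 had 1.62 and RRP15 0.19, and NOG2 had 1.60 and ESF2 0.51. Among 26 tested genes that share a divergent start region with a member and belong to neither list, 5 rose (19.2%), 4 fell and the median was 0.04, where 12.1% of all genes rose.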
